A study of Mus musculus with 10 samples.

Results

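The 35 genes described here drive or mark the cell division cycle: the subunits of the replicative helicase and its licensing inhibitor, enzymes that supply nucleotides, the replication clamp, the cyclins with their kinases and kinase inhibitors, and genes of S phase, G2 and mitosis. They were chosen by name for these functions, and a probe set was taken for a gene only where the array's annotation names that gene and no other. By this rule 34 of the 35 genes, with 80 probe sets, were found among 18193 singly named genes on the array; expression of Ccnb1 was not analysed here. Livers of female mice were compared, 5 homozygous for human APOE3 and 5 homozygous for human APOE4, each allele having replaced the mouse Apoe gene and being transcribed from the mouse promoter (B6.129P2-Apoetm2(APOE*3)Mae and B6.129P2-Apoetm3(APOE*4)Mae, both N8). All 10 mice were on a C57BL/6 background, were 3 months old and ate a high-fat diet with 41% energy as milk fat and 2 g/kg cholesterol. The time on this diet is 6 weeks in the series' design text and 2 months in its growth protocol. Neither group keeps mouse Apoe, so the comparison is between 2 human alleles and not with an unmodified liver. Each animal gave 1 liver RNA extract and 1 one-colour array.

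As background, most hepatocytes of an adult liver are out of the cell cycle and re-enter it after loss of tissue. Growth signals raise D-type cyclins, which act with Cdk4 and Cdk6 on the retinoblastoma proteins and so free E2F factors to transcribe the genes of DNA replication. Genes of G2 and mitosis are transcribed later in the cycle, many of them through promoters with a CHR element. In bulk tissue, fewer cycling cells and less RNA per cell cannot be told apart.

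The array values are log2 GCRMA signals, on which a transcript that is not detected sits near a low floor; 4 was used here as the line above that floor. The arrays had medians of 2.61 to 2.67 log2, and 14557 to 15054 of their probe sets were above 4. The median was higher in APOE3 (2.64 to 2.67) than in APOE4 (2.61 to 2.64; exact permutation test, two-sided, p = 0.0079), whereas the number of probe sets above 4 (p = 0.619) and the 3' minus 5' differences of Actb (p = 0.881) and Gapdh (p = 0.738) gave no call in the same exact test. Of 12 hepatocyte markers 11 were on the array, none was under 4 in every liver, and their summed level was 16.93 to 17.20 log2 in APOE3 and 17.03 to 17.17 in APOE4. Of these 11, Ass1 was above 4 in a single liver, APOE3 replicate 4, at 4.12, and was not tested. The liver labelled APOE4 replicate 1 stood apart: 125 probe sets were over 1 log2 unit higher there than in every other liver, against 62 in APOE3 replicate 4 and 2 to 19 in the other 8. Its Actb difference of 2.51 and Gapdh difference of 0.299 lay inside the range of the other livers. With 15054 probe sets above 4 it had the most of any liver, against 14557 to 14868 in the other 9. The difference of a gene's brightest probe set is also given without it where leaving it out turned the direction or moved the value by over 1.5 times.

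No tested cell cycle gene passed a test of APOE4 against APOE3 livers, and the animals of each genotype varied widely in these genes. Of the 34 genes, 19 had a probe set with a mean of at least 4 over all 10 livers and were tested, and 0 of them passed an adjusted p under 0.05 (limma, adjusted over all 14732 tested probe sets); of all tested probe sets 12 passed, or 0.0815%. At an unadjusted p under 0.05 the count was also 0 of 19 genes and 0 of 34 probe sets of these genes, against 8.00% of all tested probe sets. In 0 of the 19 genes were the APOE3 and APOE4 values without overlap, against 2.02% of all tested probe sets. The fitted difference was positive, with APOE4 higher, for 10 genes and negative for 9, with a median of 0.085 log2 beside 0.05 over all tested probe sets. Without APOE4 replicate 1 the genes' median was -0.10. The median SD of the tested genes was 0.44 in APOE3 and 0.36 in APOE4, against 0.24 and 0.20 over all tested probe sets, and the median SE of a difference was 0.22 against 0.14. A difference that misses the threshold here does not show that the genotypes are alike.

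In this mostly resting tissue 17 of the 34 genes were above 4 in all 10 livers. These were Mcm3, Mcm4, Mcm6, Mcm7, Gmnn, Rrm1, Rrm2, Pcna, Ccnd1, Ccnd2, Ccnd3, Cdk2, Cdk4, Cdk6, Cdkn1a, Cdkn1b and Cdkn2c. A further 10 were above 4 in some livers: Mcm5 in 9, Ube2c in 5, Birc5 and Ccne2 in 4 each, Cdk1 in 2, and Mcm2, Ccna2, Ccnb2, Aurka and Mki67 in 1. For those last 5 genes that liver was APOE4 replicate 1. On their brightest probe sets (highest mean over the livers), Tyms, Ccne1, E2f1, Aurkb, Bub1, Plk1 and Top2a were under 4 in every liver. The lists above also rest on the brightest probe set of each gene. The other Mcm5 probe sets were under 4 in every liver, at 1.86 to 3.64 and 1.98 to 2.35. Some of the 17 genes, among them Mcm3, Mcm6, Rrm1 and Rrm2, also had further probe sets under 4 in every liver. At the edge of the filter, Ube2c was tested with a mean of 4.22, and Birc5 was not, with 3.97; Ube2c reached that mean through its 7.49 in APOE4 replicate 1.

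**Figure D1:**
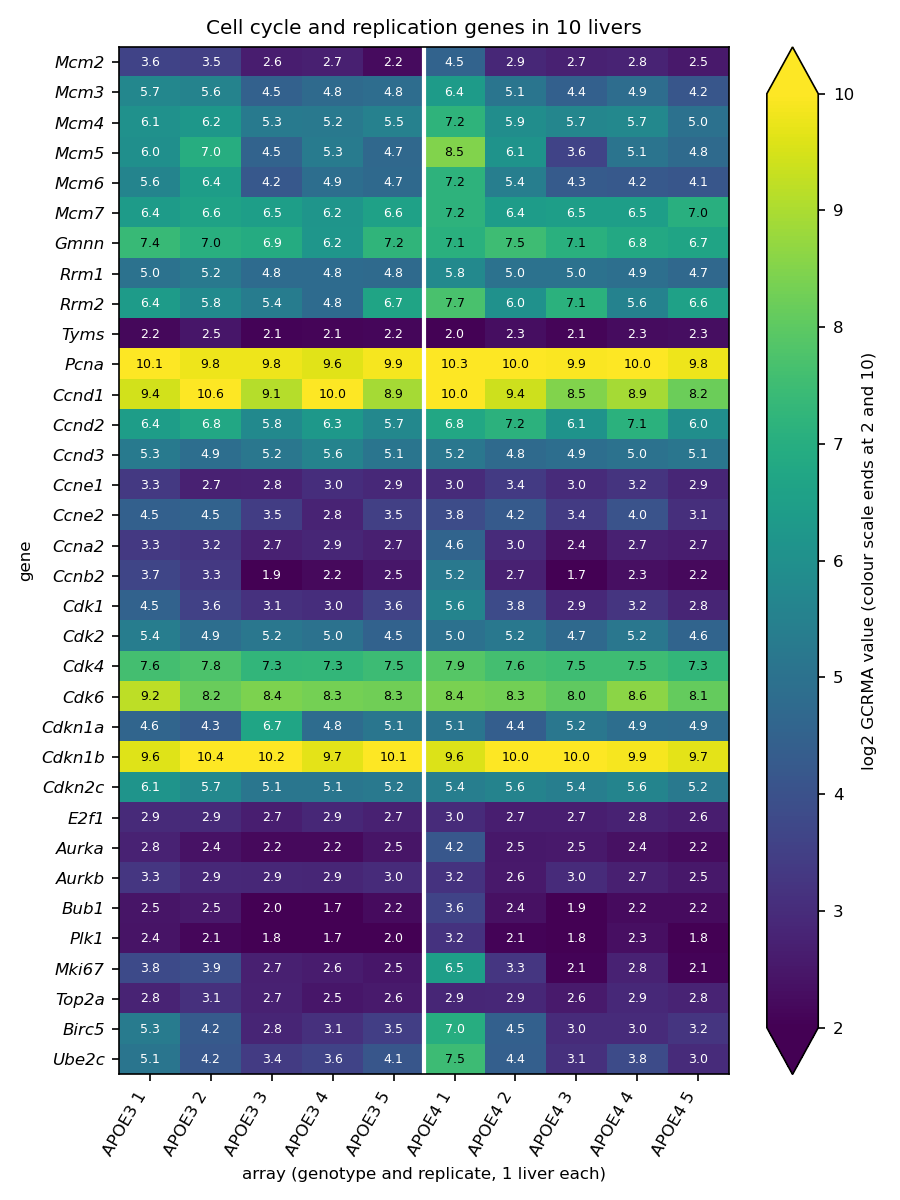
Log2 GCRMA level of each cell cycle gene (vertical axis, 1 probe set per gene) in each liver (horizontal axis, 5 APOE3 and 5 APOE4), coloured by level. Levels of different genes are not to be compared; within the S, G2 and mitosis genes the brightest liver is mostly APOE4 replicate 1, where Mki67 is at 6.49 and Ube2c at 7.49.

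The genes Mcm2 to Mcm7 encode the 6 subunits of the ring that unwinds DNA ahead of the replication fork. On their brightest probe sets all 6 were highest in APOE4 replicate 1. A further Mcm7 probe set, above 4 in all livers, was highest in APOE4 replicate 5, at 5.62 against 5.57 in APOE4 replicate 1. A further Mcm2 and a further Mcm5 probe set, under 4 in every liver, were highest in APOE3 replicate 1. Mcm5 was at 5.97, 6.97, 4.54, 5.32 and 4.71 log2 in APOE3 replicates 1 to 5 and 8.48, 6.12, 3.62, 5.07 and 4.75 in APOE4 replicates 1 to 5. Mcm6 was at 5.62, 6.44, 4.22, 4.88 and 4.74 log2 in the APOE3 livers and 7.16, 5.41, 4.31, 4.24 and 4.15 in the APOE4 livers. Both had their highest value in APOE4 replicate 1 and their next highest in APOE3 replicate 2, and the genotypes overlapped. The fitted APOE4 minus APOE3 difference was 0.11 (SE 0.80) for Mcm5 and -0.12 (SE 0.59) for Mcm6, and without APOE4 replicate 1 it was -0.61 and -0.65. A second Mcm6 probe set, nearly as bright, gave 0.34 (SE 0.49) over all 10 livers, so the direction for Mcm6 depended on the probe set. Mcm3 was at 5.69, 5.59, 4.48, 4.75 and 4.84 log2 in the APOE3 livers and 6.40, 5.12, 4.45, 4.86 and 4.16 in the APOE4 livers. Mcm4 was at 6.06, 6.24, 5.28, 5.24 and 5.53 log2 in the APOE3 livers and 7.21, 5.92, 5.66, 5.72 and 4.99 in the APOE4 livers. For both of these the 3 highest livers were APOE4 replicate 1 and APOE3 replicates 1 and 2, with the other APOE4 livers inside or below the APOE3 range. Their differences of -0.08 (SE 0.39) and 0.23 (SE 0.36) became -0.43 and -0.10 without APOE4 replicate 1. Over all 10 livers a second probe set gave 0.22 (SE 0.31) for Mcm3, of opposite sign, and 0.17 (SE 0.46) for Mcm4. Mcm7 was at 6.41, 6.62, 6.49, 6.17 and 6.59 log2 in the APOE3 livers and 7.17, 6.41, 6.49, 6.50 and 7.04 in the APOE4 livers. It varied least of the helicase genes between animals and differed by 0.27 (SE 0.17), or 0.16 without APOE4 replicate 1, with APOE4 replicates 1 and 5 highest. Mcm2 was at 3.62, 3.53, 2.63, 2.70 and 2.23 log2 in the APOE3 livers and 4.53, 2.89, 2.73, 2.80 and 2.54 in the APOE4 livers, so it was above the floor in a single liver and was not tested. Gmnn, which encodes geminin, the protein that blocks relicensing of replicated origins, did not follow the ring: it was at 7.39, 7.05, 6.92, 6.19 and 7.22 log2 in the APOE3 livers and 7.08, 7.52, 7.09, 6.82 and 6.69 in the APOE4 livers, with its highest value in APOE4 replicate 2 and a difference of 0.09 (SE 0.22).

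Of the genes of S phase, G2 and mitosis, 4 were above 4 in APOE4 replicate 1 and in no other liver. Mki67, whose nuclear protein is the usual histological mark of cycling cells, was at 3.80, 3.92, 2.70, 2.62 and 2.47 log2 in APOE3 replicates 1 to 5 and 6.49, 3.27, 2.06, 2.75 and 2.09 in APOE4 replicates 1 to 5. Ube2c, the ubiquitin-conjugating enzyme that works with the anaphase-promoting complex, was at 5.11, 4.18, 3.39, 3.60 and 4.15 log2 in the APOE3 livers and 7.49, 4.42, 3.10, 3.83 and 2.99 in the APOE4 livers. Birc5, which encodes survivin of the chromosomal passenger complex, was at 5.34, 4.25, 2.84, 3.12 and 3.50 log2 in the APOE3 livers and 6.98, 4.46, 3.00, 2.99 and 3.24 in the APOE4 livers. In each of these genes APOE4 replicate 1 was the highest liver, and the other 4 APOE4 livers lay within or below the APOE3 range. With values under 4 set to 4, since most of the other livers were at the floor, APOE4 replicate 1 exceeded the median of the other 9 livers by 2.49 log2 for Mki67, 3.49 for Ube2c and 2.98 for Birc5, beside 3.41 for Mcm5. Ube2c alone in this group was tested; its difference of 0.28 (SE 0.75) had an adjusted p of 0.941 (limma) and was -0.50 without APOE4 replicate 1.

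Cdk1, the kinase that drives entry into mitosis, was at 4.52, 3.55, 3.15, 3.03 and 3.57 log2 in the APOE3 livers and 5.60, 3.84, 2.92, 3.23 and 2.82 in the APOE4 livers. Its partner Ccnb2, a B-type cyclin, was at 3.67, 3.31, 1.95, 2.22 and 2.49 log2 in the APOE3 livers and 5.24, 2.74, 1.73, 2.34 and 2.19 in the APOE4 livers. Ccna2, the A-type cyclin of S phase and G2, was at 3.34, 3.23, 2.72, 2.87 and 2.71 log2 in the APOE3 livers and 4.59, 2.97, 2.37, 2.75 and 2.65 in the APOE4 livers. APOE4 replicate 1 was again highest for all 3 genes, and APOE3 replicate 1 was the next highest. Aurka, a kinase of spindle poles, was at 2.76, 2.39, 2.22, 2.21 and 2.47 log2 in the APOE3 livers and 4.18, 2.53, 2.53, 2.36 and 2.24 in the APOE4 livers, above 4 in APOE4 replicate 1 and under 3 in the other 9 livers. Of the 4 genes under 4 everywhere on their brightest probe set, Aurkb, a kinase of the chromosomal passenger complex, ranged over 2.52 to 3.26. Bub1, a spindle checkpoint kinase, ranged over 1.70 to 3.62. Plk1, a mitotic kinase, ranged over 1.73 to 3.16. These ranges are at the floor, where differences have no sure scale. Top2a, the topoisomerase that untangles sister chromatids, ranged over 2.47 to 3.11 there, but another of its probe sets was at 5.68 in APOE4 replicate 1 and at 1.92 to 3.48 in the other livers. In all, 9 of the 11 genes of this group were highest in APOE4 replicate 1.

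**Figure D2:**
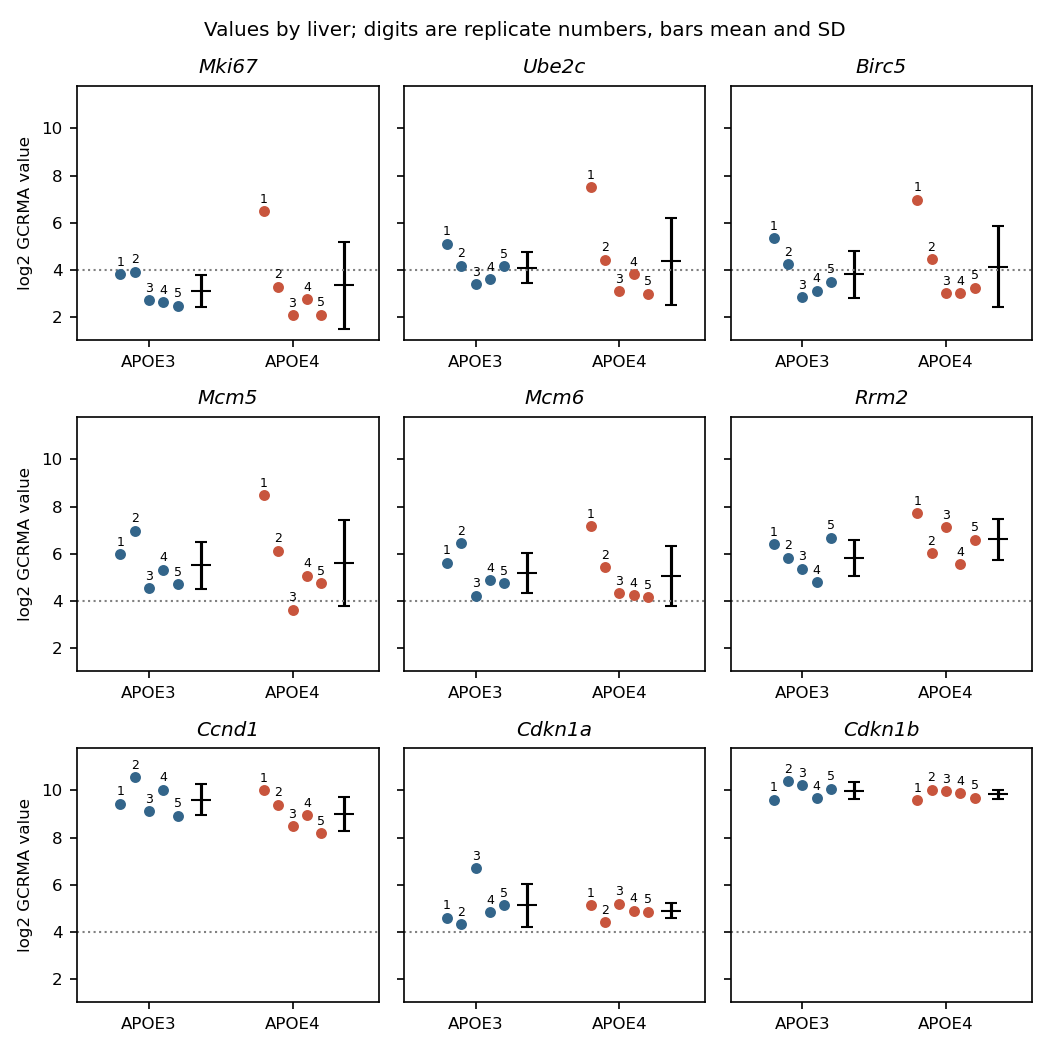
Log2 level (vertical axis) of selected cell cycle genes in each liver, with 1 numbered point per liver, bars for the mean and SD of each genotype (n = 5) and a dotted line at 4. For Mki67, Ube2c and Mcm5 the APOE4 group holds 1 liver, replicate 1, at 6.49, 7.49 and 8.48, above all 9 others.

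Over the whole set, APOE4 replicate 1 held the highest value for 10 of the 19 tested genes (52.6%), whereas it was highest for 13.5% of all tested probe sets. Over the 34 genes on the array, 15 of them untested, the count was 20. No share over all probe sets, tested or not, was computed to set beside that count. Ube2c, which was tested only through its value in that liver, is among the 10; with a filter on the mean of the other 9 livers the count was 9 of 18 genes (50%), against 13.3% of probe sets. It had 26 of the 34 genes above 4, against 17 to 22 in the other livers. When it was set aside, the highest of the remaining 9 livers was APOE3 replicate 1 for 6 of the 19 tested genes (31.6%) and APOE3 replicate 2 for 7 (36.8%), against 13.8% and 14.1% of all tested probe sets. Over all 34 genes, many of them at the floor, the counts were 15 and 12. The order of the livers on these genes was thus not an order of the genotypes: the liver most often highest was an APOE4 animal, and the next 2 were APOE3 animals.

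**Figure D3:**
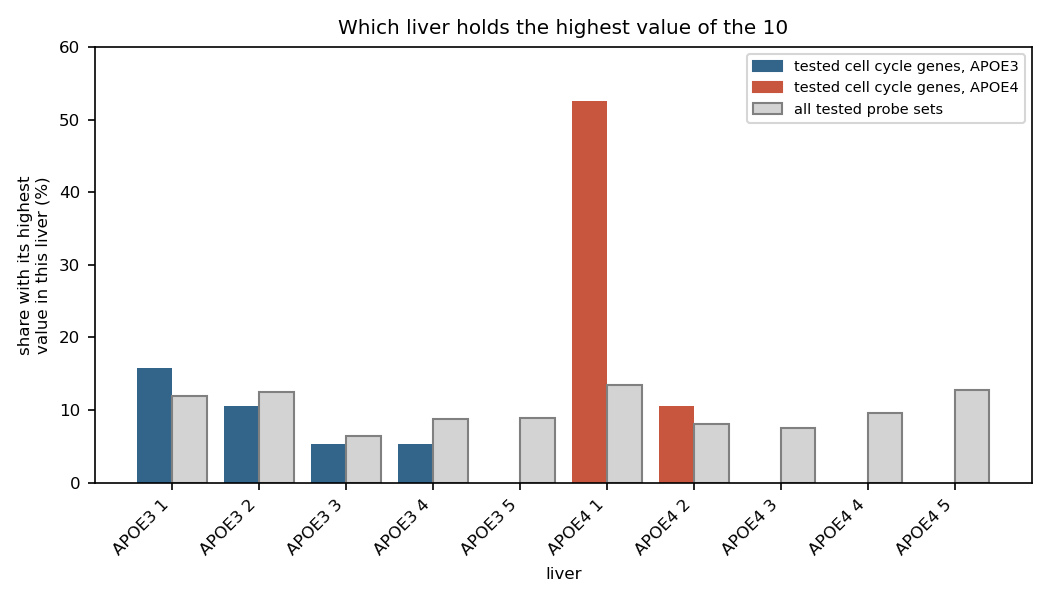
Share, in percent (vertical axis), of the 19 tested cell cycle genes and of all tested probe sets (grey) that had their highest value in each liver (horizontal axis). APOE4 replicate 1 is highest for 52.6% of the tested cell cycle genes and for 13.5% of all tested probe sets.

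Because the helicase and mitotic genes were high together in this liver, their promoters are shown. Stretches from 180 bases before to 20 after the start of transcription were taken from RefSeq (GRCm38.p6) and are written 5' to 3' on the gene's strand. Capitals mark a match on either strand to an E2F motif, searched as TTTGGCG or TTTGCCG or TTTCGCG or TTTCCCG, to a CHR motif, searched as TTTGAA or TTCGAA, or to CCAAT. Adjacent or overlapping matches run together in capitals.
Mcm5 promoter, chr8:75109329-75109528, plus strand: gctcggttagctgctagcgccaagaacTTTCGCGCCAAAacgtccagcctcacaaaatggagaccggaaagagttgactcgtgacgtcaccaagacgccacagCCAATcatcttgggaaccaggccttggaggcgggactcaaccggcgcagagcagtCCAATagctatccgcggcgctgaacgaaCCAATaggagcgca
Mcm6 promoter, chr1:128359686-128359885, minus strand: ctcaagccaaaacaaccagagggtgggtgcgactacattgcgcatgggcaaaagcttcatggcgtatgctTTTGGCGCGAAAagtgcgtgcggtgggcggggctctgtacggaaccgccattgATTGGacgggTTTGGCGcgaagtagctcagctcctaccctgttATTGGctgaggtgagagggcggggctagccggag
Cdk1 promoter, chr10:69352893-69353092, minus strand: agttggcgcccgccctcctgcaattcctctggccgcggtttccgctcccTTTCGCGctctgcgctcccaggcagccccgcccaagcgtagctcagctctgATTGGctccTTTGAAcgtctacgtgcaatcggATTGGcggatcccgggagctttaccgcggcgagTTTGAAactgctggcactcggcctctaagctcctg
Ccnb2 promoter, chr9:70421535-70421734, minus strand: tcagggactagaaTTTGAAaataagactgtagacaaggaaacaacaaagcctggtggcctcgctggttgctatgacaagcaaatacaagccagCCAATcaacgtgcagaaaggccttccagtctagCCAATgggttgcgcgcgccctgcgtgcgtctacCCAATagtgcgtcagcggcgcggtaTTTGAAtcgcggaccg
Ube2c promoter, chr2:164769749-164769948, plus strand: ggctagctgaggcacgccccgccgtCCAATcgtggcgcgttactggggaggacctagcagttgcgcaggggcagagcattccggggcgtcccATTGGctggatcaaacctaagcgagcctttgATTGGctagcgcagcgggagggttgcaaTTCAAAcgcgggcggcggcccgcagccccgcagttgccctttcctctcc
Mki67 promoter, chr7:135716360-135716559, minus strand: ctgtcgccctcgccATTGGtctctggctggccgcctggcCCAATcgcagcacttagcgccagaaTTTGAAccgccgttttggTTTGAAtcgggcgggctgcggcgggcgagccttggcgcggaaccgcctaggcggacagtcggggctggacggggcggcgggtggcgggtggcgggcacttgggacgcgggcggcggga
RefSeq's table held promoters of 28 of the 35 genes, Ccnb1 among them, and was searched over 300 bases, 250 before to 50 after the start, for all 32851 promoters. An E2F motif was in 8 of the 28 and in 6.7% of all promoters, a CHR motif in 10 of the 28 and in 19.2%, and CCAAT in 21 of the 28 and in 37.4%. By group, the E2F motif was in 4 of 5 helicase promoters and 2 of 10 promoters of the S, G2 and mitosis genes, the CHR motif in 2 of 5 and 8 of 10, and CCAAT in 5 of 5 and 9 of 10. For the cell cycle genes these are counts of genes: a gene counts if any of its promoters holds the motif. The shares over all promoters count each promoter singly, so the units differ in favour of the cell cycle genes. Among the printed stretches, Mcm5 and Mcm6 hold E2F matches and no CHR match, Ccnb2, Ube2c and Mki67 hold CHR matches and no E2F match, and Cdk1 holds both. A match is a run of letters and does not show that a factor binds there. The motifs were chosen from textbook knowledge after the values were known.

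Rrm1 and Rrm2 encode the large and small subunits of ribonucleotide reductase, which makes the deoxynucleotides for replication. Rrm2 was at 6.40, 5.83, 5.36, 4.79 and 6.68 log2 in APOE3 replicates 1 to 5 and 7.71, 6.03, 7.12, 5.56 and 6.59 in APOE4 replicates 1 to 5. APOE4 replicates 1 and 3 were the highest livers and APOE3 replicate 4 the lowest, with overlap between genotypes. Its difference of 0.79 (SE 0.44) was the largest positive one of the set and ranked first by p among the 19 genes, with an adjusted p of 0.678 (limma). It was 0.52 without APOE4 replicate 1, and a second probe set gave 0.36 (SE 0.29). Rrm1 was at 5.02, 5.22, 4.81, 4.80 and 4.75 log2 in the APOE3 livers and 5.76, 5.00, 5.03, 4.91 and 4.70 in the APOE4 livers, and its difference of 0.16 (SE 0.18) was -0.01 without APOE4 replicate 1. Tyms, which makes thymidylate, ranged over 2.04 to 2.47 and was not tested; a further Tyms probe set that also names a pseudogene was not used. Pcna, the sliding clamp that holds polymerases on DNA, varied least between livers of the replication genes above 4 and was at 10.08, 9.80, 9.80, 9.62 and 9.89 log2 in the APOE3 livers and 10.34, 10.05, 9.95, 9.97 and 9.81 in the APOE4 livers. APOE4 replicate 1 was highest and APOE3 replicate 4 lowest, and the difference was 0.18 (SE 0.12), or 0.10 without APOE4 replicate 1.

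The D-type cyclins pointed in different directions, and none passed the test. Ccnd1, the cyclin through which growth signals push hepatocytes out of rest, was at 9.44, 10.56, 9.11, 10.03 and 8.93 log2 in APOE3 replicates 1 to 5 and 10.02, 9.39, 8.48, 8.94 and 8.20 in APOE4 replicates 1 to 5. The highest livers were APOE3 replicates 2 and 4 and APOE4 replicate 1, the lowest were APOE4 replicates 5 and 3, and the groups overlapped. The difference was -0.61 (SE 0.38), or -0.86 without APOE4 replicate 1, with an adjusted p of 0.707 (limma); its other probe sets gave -0.42 and -0.35. Ccnd2, a second D-type cyclin, was at 6.44, 6.79, 5.81, 6.26 and 5.74 log2 in the APOE3 livers and 6.79, 7.15, 6.12, 7.11 and 5.97 in the APOE4 livers. It was highest in APOE4 replicates 2 and 4, with a difference of 0.42 (SE 0.28), and its other probe sets gave 0.29, 0.34 and 0.26. Ccnd3, the third of these cyclins, was at 5.26, 4.89, 5.16, 5.58 and 5.10 log2 in the APOE3 livers and 5.17, 4.76, 4.89, 5.03 and 5.15 in the APOE4 livers, with a difference of -0.20 (SE 0.13) and APOE3 replicate 4 highest. The E-type cyclins, which start S phase with Cdk2, were near the floor: Ccne2 was at 4.46, 4.51, 3.47, 2.78 and 3.50 log2 in the APOE3 livers and 3.85, 4.25, 3.39, 4.04 and 3.06 in the APOE4 livers, and Ccne1 ranged over 2.73 to 3.36. E2f1, a transcription factor of the replication genes, ranged over 2.64 to 2.99.

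The cyclin-dependent kinases of G1 were above 4 in all 10 livers, and none passed the test between genotypes. Cdk4, the partner of D-type cyclins, was at 7.60, 7.75, 7.26, 7.29 and 7.47 log2 in APOE3 replicates 1 to 5 and 7.89, 7.60, 7.52, 7.50 and 7.30 in APOE4 replicates 1 to 5, with a difference of 0.09 (SE 0.13), or 0.004 without APOE4 replicate 1. Cdk6, its relative, was at 9.19, 8.18, 8.41, 8.34 and 8.26 log2 in the APOE3 livers and 8.40, 8.31, 8.04, 8.62 and 8.12 in the APOE4 livers, with a difference of -0.18 (SE 0.19). APOE3 replicate 1 was highest for Cdk6, at 9.19 against 8.62 in the next liver, and another Cdk6 probe set had the smallest unadjusted p of any probe set of these genes (limma, adjusted p = 0.668; difference -0.32, SE 0.17). Cdk2, the kinase of the E- and A-type cyclins, was at 5.38, 4.88, 5.16, 5.03 and 4.52 log2 in the APOE3 livers and 5.00, 5.19, 4.72, 5.16 and 4.58 in the APOE4 livers, with a difference of -0.06 (SE 0.17). No liver of either genotype was apart from the rest for Cdk2.

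The inhibitors that hold these kinases back were all above 4 in every liver. Cdkn1a, which encodes p21, a target of p53, was at 4.59, 4.33, 6.69, 4.82 and 5.14 log2 in APOE3 replicates 1 to 5 and 5.12, 4.40, 5.19, 4.89 and 4.86 in APOE4 replicates 1 to 5. APOE3 replicate 3 was the highest, and the difference of -0.23 (SE 0.38) was 0.17 without it. Cdkn1b, which encodes p27 and is high in resting cells, was at 9.61, 10.38, 10.23, 9.67 and 10.08 log2 in the APOE3 livers and 9.59, 10.04, 9.97, 9.89 and 9.69 in the APOE4 livers, with a difference of -0.16 (SE 0.16), or -0.10 without APOE4 replicate 1. Cdkn2c, an inhibitor of Cdk4 and Cdk6, was at 6.13, 5.75, 5.15, 5.14 and 5.23 log2 in the APOE3 livers and 5.43, 5.58, 5.42, 5.61 and 5.23 in the APOE4 livers, with a difference of -0.03 (SE 0.19). APOE4 replicate 1, which was highest for 20 of the 34 genes, was not highest for any of these 3 inhibitors.

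**Figure D4:**
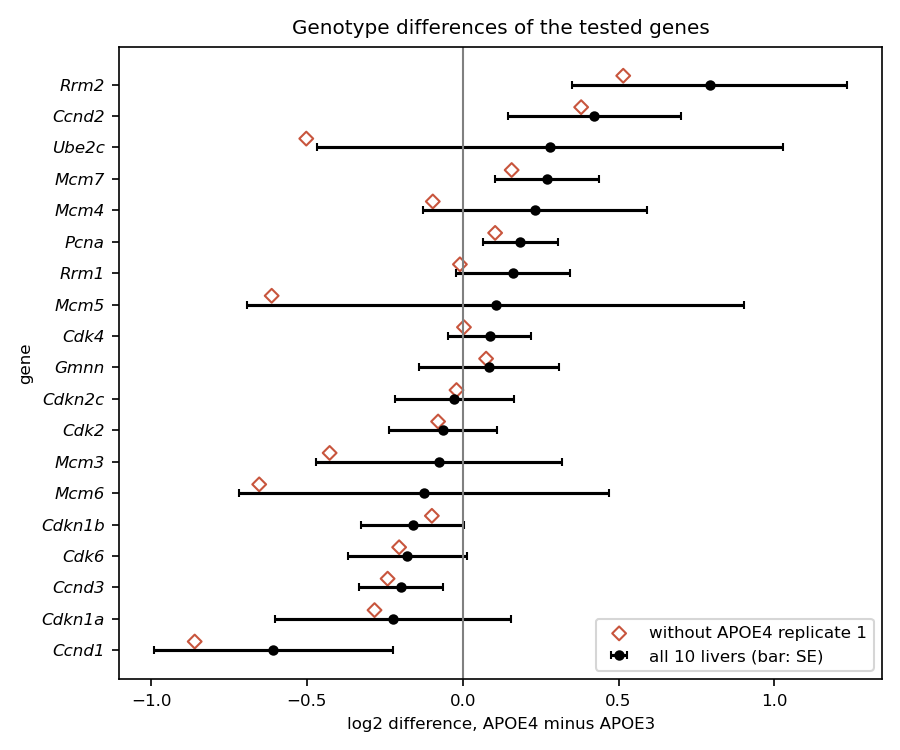
APOE4 minus APOE3 difference in log2 units (horizontal axis) for each of the 19 tested cell cycle genes (vertical axis), with its SE as a bar and, as an open diamond, the difference without APOE4 replicate 1. The points run from Ccnd1 at -0.61 to Rrm2 at 0.79, and no gene passed the adjusted threshold.

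The genes above 4 in all 10 livers were also compared with one another over the 10 livers. Of 136 pairs of 17 genes, r was positive for 90, and 10 pairs passed an adjusted p under 0.05 by Pearson's r (permutation test, adjusted over the pairs). A single pair, Mcm4 and Cdk4, passed by both r and Spearman's rho. For Mcm4 and Cdk4 r was 0.957 (permutation p = 1e-05, the smallest that the resampling can give; adjusted p = 0.0014) and rho was 0.939 (permutation p = 0.00019, adjusted p = 0.026). Without APOE4 replicates 1 and 5, the livers farthest from the median of Mcm4, r was 0.975. For each pair the 2 livers left out were those farthest for the gene named first, not for both genes. For Mcm4 and Rrm1 r was 0.964 (permutation p = 2e-05, adjusted p = 0.0014) and rho was 0.891 (permutation p = 0.0011, adjusted p = 0.051), with r of 0.881 without the same 2 livers. Mcm3 and Mcm6 gave r of 0.945 (permutation p = 8e-05, adjusted p = 0.0027) and rho of 0.879 (permutation p = 0.0017, adjusted p = 0.057), with r of 0.909 without APOE4 replicate 1 and APOE3 replicate 1. For Mcm6 and Rrm1 r fell to 0.498 without APOE4 replicate 1 and APOE3 replicate 2, from 0.872 (permutation p = 0.0012, adjusted p = 0.019; rho of 0.733, permutation p = 0.02, adjusted p = 0.21), so that relation rests on those livers. All 10 pairs joined Mcm3, Mcm4, Mcm6, Rrm1 and Cdk4 with one another.

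**Figure D5:**
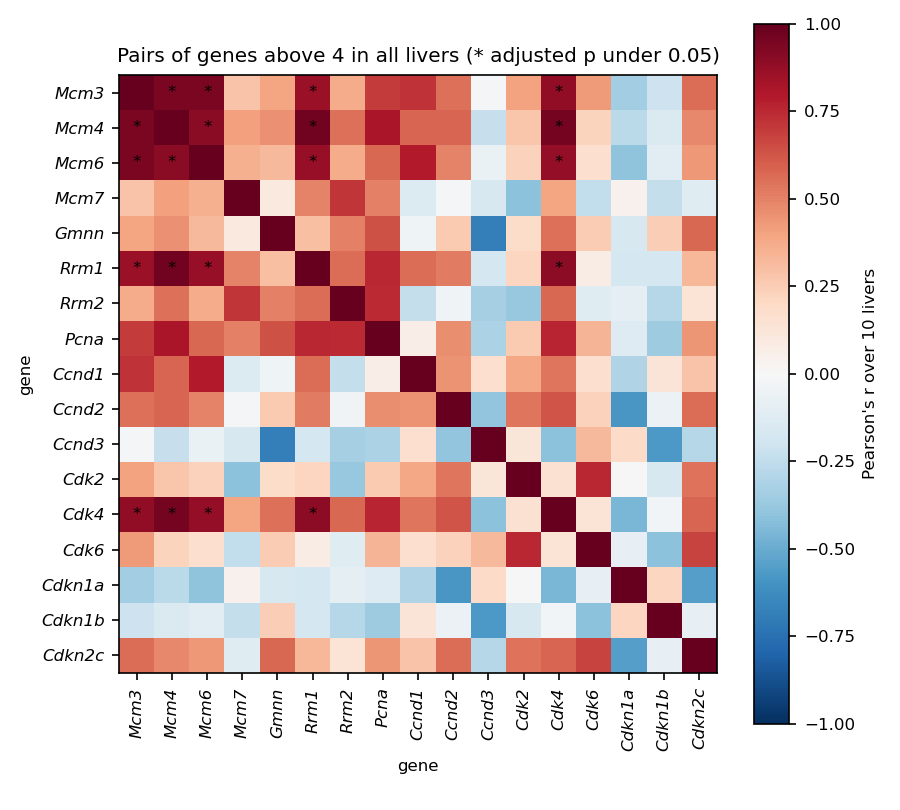
Pearson's r over the 10 livers (colour) for each pair of the 17 genes above 4 in all livers, with the genes on both axes and asterisks at pairs with an adjusted p under 0.05. Asterisks mark the 10 pairs among Mcm3, Mcm4, Mcm6, Rrm1 and Cdk4, all positive.

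Lists of further genes of the pathway were read from the same fit, and no gene in any of the 5 lists passed the adjusted threshold. Of 47 genes of the replication machinery 29 were tested and 3 had an unadjusted p under 0.05, which 8.00% of all tested probe sets had. Orc3, of the origin recognition complex, had a difference of 0.19, Fen1, the nuclease that trims lagging-strand fragments, one of -0.61 (SE 0.154, adjusted p = 0.404, limma), and Rrm2b, the p53-inducible reductase subunit, one of -0.46 (adjusted p = 0.571, limma). APOE4 replicate 1 was the highest liver for 8 of these 29 tested genes (27.6%), a smaller share than among the helicase genes. Of 45 genes of G2, mitosis and the spindle 16 were tested, none at an unadjusted p under 0.05; the smallest p were those of Cks2 at 0.32, Cenpa at 0.38 and Incenp at 0.31, which without APOE4 replicate 1 were at 0.20, 0.02 and -0.10. APOE4 replicate 1 was the highest liver for 11 of those 16 genes (68.8%), against 13.5% of all tested probe sets. Over the 44 genes on the array, 16 of them under 4 in every liver, the count for that liver was 34. No like share over all probe sets was computed. Chosen after its values were seen, Cdc20, an activator of the anaphase-promoting complex, was there at 8.01 against 3.10 to 6.23 in the other 9. Mad2l1, of the spindle checkpoint and chosen likewise, was at 7.48 against 4.33 to 6.41.

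Of 31 genes of the retinoblastoma and E2F axis 16 were tested and 2 had an unadjusted p under 0.05, against the same 8.00% of all tested probe sets. E2f8, a repressing E2F factor, had a difference of 0.81 (SE 0.263, adjusted p = 0.544, limma), and Ccng1, a p53 target, one of -0.35 (adjusted p = 0.580, limma). Lin37, of the DREAM complex, was next at 0.28. APOE4 replicate 1 was highest for 4 of the 16 (25%). Of 29 genes of the p53 and damage response 15 were tested, and 4 had an unadjusted p under 0.05 (8.00% of all tested probe sets had one), all with negative differences: Ccng1, Trp53inp1 at -0.38 (adjusted p = 0.557, limma), Btg2 at -0.76 (adjusted p = 0.582, limma) and Sesn1 at -0.33. Of 23 growth and regeneration signals 14 were tested, 12 with a positive difference and 2 with a negative one, and none had an unadjusted p under 0.05; the smallest p were those of Yap1 at 0.12, Fos at 0.98 and Igf1 at 0.08. Fos was tested only through its 8.20 in APOE4 replicate 1, and its difference was 0.09 without that liver. APOE4 replicate 1 was highest for 3 of the 15 tested p53 and damage genes (20%) and 2 of the 14 growth signals (14.3%).

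Markers of other cell types were read beside the liver that held the high mitotic genes. The summed level of 12 Kupffer cell and macrophage markers was 13.61 log2 in APOE4 replicate 1, within the 12.78 to 14.08 of APOE3 (12.62 to 13.61 in APOE4). Of the 12, 1 was highest in that liver: Cd68, at 7.39 against 5.17 to 6.66 in the other 9. The brighter Cd5l, at 11.82, and Lyz2, at 11.19, were inside the ranges of the other 9 livers (10.99 to 12.15 and 8.89 to 11.35). The 9 of 12 lymphocyte and plasma cell markers on the array summed to 8.81, within the APOE3 range of 7.51 to 9.23 (7.37 to 8.81 in APOE4). Jchain, the joining chain of plasma cell antibodies, was at 6.13 there against 2.64 to 4.57 in the other 9 livers, Ms4a1, a B cell gene, at 5.09 against 3.53 to 4.81 and Cd79b, another, at 4.88 against 3.33 to 4.15, while Cd3e, Cd3g, Cd79a, Nkg7 and Mzb1 were under 4 in every liver. Ptprc, the brightest of the 9 and most of their sum, was at 8.15 there, inside the 6.78 to 9.01 of the other 9 livers. The 7 of 12 erythroid markers summed to 9.74 against 8.40 to 9.22 in APOE3 (8.42 to 9.74 in APOE4), with Tfrc, the transferrin receptor, at 9.31 against 7.20 to 8.44 in the other 9 livers, Alas2, of erythroid heme synthesis, inside their range at 7.54 (6.35 to 7.81), Klf1, an erythroid transcription factor, at 3.59 (3.51 to 5.22) and Hba-a1, Epb42, Gata1 and Slc4a1 under 4 throughout. No beta-globin gene was among these 7, and Hba-a1 was read only on a probe set that names it alone. The level of globin RNA is thus not given by these values. The 7 of 10 neutrophil and monocyte markers summed to 6.07 against 6.28 to 7.63 in APOE3 (5.81 to 6.50 in APOE4), with Mpo, Elane, Camp, Ngp and Ccr2 under 4 throughout. The 10 stellate cell markers summed to 12.44 in this liver against 12.02 to 12.44 in APOE3 (11.84 to 12.44 in APOE4), with Des under 4 throughout. Of these 10, 5 were highest in APOE4 replicate 1, among them Col1a2 at 7.84 against 4.44 to 6.45 in the other 9, whereas Rgs5 was lowest there at 9.30 against 9.62 to 10.69 and Reln at 8.72 against 8.85 to 9.52. The 10 endothelial markers summed to 11.35 against 11.36 to 11.62 (11.35 to 11.85 in APOE4), and the 7 of 9 cholangiocyte markers to 12.55 against 11.86 to 12.54 (11.76 to 12.55 in APOE4), with Krt19, Krt7, Epcam and Cftr under 4 throughout. The cholangiocyte sum is almost all Krt8, at 11.12 there (10.05 to 10.95 in the other 9), and Krt18, at 11.87 (10.99 to 11.96). Sox9 was at 3.55 there against 3.18 to 4.09, so that sum says little of the other cholangiocyte markers. The part of these cell types in the cell cycle values was not tested.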

How the data were processed

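Liver RNA from 5 APOE3 and 5 APOE4 mice was measured on one-colour arrays, 1 extract per animal, labelled with biotin from 2 ug of RNA per the labels. The values deposited by the authors are on the log2 scale and per the submitters' processing notes come from GCRMA 2.12.1 run under R 2.7.1. Scanner files were not used here; the build behind the array's annotation is not given in the sources used here. This method leaves undetected transcripts at a low floor, so differences under 4 have no sure scale; the probe sets used for Mcm3, Mcm5, Mcm6, Mcm7, Rrm2, Ccnd2, Cdk4 and Aurkb have a suffix (s_at or x_at) that marks probes shared with other transcripts, so their values can hold signal of those. Groups come from the sample titles; 0 value columns belonged to no sample.

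In the annotation, 34958 probe sets had 1 symbol, 932 had several and 9211 had none. After removal of 64 control probe sets, the 14732 probe sets with a mean of at least 4 over all 10 arrays were tested with limma 3.58.1 in R 4.3.3 (lmFit, eBayes, two-sided, no covariate), Benjamini-Hochberg adjusted over all of them with a threshold of 0.05. Each gene is described by its probe set with the highest mean. All genes are accounted for; those above 4 in any liver are given by array, the others by range; of each further list, up to 3 genes with the smallest p are named, and Sesn1, Cdc20, Mad2l1 and single markers of other cell types were added after their values were seen. The genes and lists were chosen with earlier results of these data known. Co-variation used 1e+05 resamples. The fit was tested on simulated data. The alternatives were no filter, a filter at 6 or on at least 5 arrays, trend and robust settings, array weights, quantile normalization, centring, a floor at 4, the brightest probe set alone for each gene, the mean of a gene's probe sets, a replicate block, and omission of each animal in turn. Plots were made in matplotlib 3.10.9 (Python 3.11.15). The number of arrays limits the precision.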

Additional observations from a re-analysis of the deposited data

Results flagged for a closer look

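Within each genotype, the 27 genes above 4 in any liver were checked for a single liver far from its 4 neighbours, by Dixon's ratio with a critical value of 0.71. Of 54 groups 6 were past it; chance gives about 5%. In 5 of the 6 the liver was APOE4 replicate 1, in genes that entered this check only because they were above 4 in that liver, so the count of these restates how they were chosen. Among the 19 genes tested between genotypes, 1 of 38 groups (2.63%) was past it, against 6.27% over all tested probe sets. In APOE4 replicate 1 Mki67 was at 6.49 (next highest APOE4 liver 3.27), Ccnb2 at 5.24 (2.74), Ccna2 at 4.59 (2.97), Mcm2 at 4.53 (2.89) and Aurka at 4.18 (2.53). Those genes are near the floor in the other livers. The other was Cdk6 in APOE3 replicate 1, at 9.19 (next highest APOE3 liver 8.41). The cause was not tested for any of them.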

How the results depend on the processing

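No cell cycle gene passed the adjusted threshold under any of the alternative settings. Among the 19 genes tested in the main fit the lowest adjusted p was 0.463 (limma). Over all probe sets 12 passed; the count was 5 with a filter at 6, 7 with 1 probe set per gene, 5 to 15 over the settings that keep all livers and 8 to 14 when 1 liver was left out. Of 389 recomputed differences 360 kept their direction and 29 reversed, for 11 genes. With array weights Mcm5 was at -0.167 and Cdkn2c at 0.057, with centring Cdkn2c was at 0.005, and with the mean of all tested probe sets Mcm3 was at 0.07 and Mcm6 at 0.108. Leaving out 1 liver at a time gave -0.43 to 0.13 for Mcm3, -0.10 to 0.46 for Mcm4, -0.61 to 0.60 for Mcm5, -0.65 to 0.19 for Mcm6, -0.50 to 0.63 for Ube2c, -0.009 to 0.257 for Rrm1, -0.11 to 0.19 for Gmnn, -0.180 to 0.033 for Cdk2, -0.258 to 0.001 for Cdk6, -0.42 to 0.17 for Cdkn1a and -0.11 to 0.14 for Cdkn2c. Their median ran from -0.10, without APOE4 replicate 1, to 0.16, and from 0.02 to 0.12 under the other settings. APOE4 replicate 1 was highest for 9 to 11 tested genes under 4 settings chosen after seeing the data. The cause was not tested.

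The sample titles give a replicate number and do not say whether equal numbers link animals. Same-numbered livers had correlations of 0.002, 0.186, 0.414, -0.079 and 0.294, against -0.397 to 0.381 for livers of different number. Not every liver correlated best with its own number. Whether equal numbers pair animals cannot be told from these values. With the replicate block 11 probe sets and 0 cell cycle genes passed.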

Other observations

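Outside these genes, the probe set on which APOE4 replicate 1 stood farthest above every other liver was that of Mycn, a MYC-family transcription factor: it was at 11.68 there and at 2.84 to 3.11 in the other 9 livers. The other 2 Mycn probe sets were at 1.68 to 3.18 and 3.27 to 3.76 over all 10 livers, so the probe sets disagree. Next came S100a4, a calcium-binding protein gene, at 9.36 against 2.02 to 2.96, and Fxyd2, a regulator of the sodium pump, at 7.95 against 1.58 to 2.08. Pclaf, whose protein binds the replication clamp, was at 7.77 against 2.86 to 4.09, Ighg3, an immunoglobulin heavy chain gene, at 7.08 against 2.79 to 3.43, and Fos, an immediate early gene, at 8.20 against 2.53 to 4.76. These genes were chosen after their values were seen. What sets this liver apart was not tested.

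In APOE3 replicate 3, where Cdkn1a was highest, Gadd45g, a growth arrest gene, was also highest, at 10.49 against 8.09 in APOE4 replicate 1 and 4.10 to 7.83 in the other livers. Other genes of the p53 and damage list went both ways in APOE3 replicate 3. Trp53inp1 was highest there at 11.39, whereas Gadd45a was lowest there at 4.88 and Aen was lowest there at 4.54. These genes were likewise chosen after their values were seen.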
